A study of Mus musculus with 12 samples.

Results

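CpG methylation was examined at the collagen genes in the left ventricle of 12 weanling mice, born to dams kept on a high-fat diet (HFD) or on a regular diet (RD). The members were all autosomal protein-coding genes named Col, a number, a, a number, which gave 42 collagen genes among 20665 autosomal protein-coding genes in the RefSeq gene table used (mouse, GRCm38.p6). Sites inside these genes or within 2 kb of them were kept where all 12 animals had a value. This left 974 CpG sites in 39 genes. The animals were wild-type FVB/N offspring, 3 weeks old. Dams were on their diet from 6 weeks of age, were mated after 8 weeks of it to males on the regular diet, and stayed on it afterwards. There were 6 HFD offspring (3 of each sex) and 6 RD offspring (4 females, 2 males). How many dams or litters they came from is not stated in the labels, so litter mates may be counted as separate animals, and p-values measure only the spread between these samples.

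Collagens are the main structural proteins of the extracellular matrix, built from chains that wind into a triple helix. In the heart the fibrillar types I, III and V form the fibres between muscle cells, largely made by fibroblasts. Types IV and XVIII belong to the basement membranes that surround cardiomyocytes and blood vessels, and type VI forms beaded filaments next to them. CpG methylation is usually low at promoters rich in CpG and high inside the transcribed part of a gene. DNA of the whole ventricle mixes cell types, so a change in the share of a cell type and a change of methylation within its cells cannot be told apart.

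The assay was reduced representation bisulfite sequencing (RRBS), in which the enzyme MspI cuts at CCGG before bisulfite conversion, so only CpGs near such motifs are read. Which collagens could be seen therefore depended on their sequence. Promoter windows of 300 bases (250 before to 50 after the start, RefSeq, GRCm38.p6) were matched by symbol for 33 of the 42 genes and came to 36 windows. CCGG, which reads the same on both strands, was present in 22 of these (61.1%), against 63.5% of all 20085 promoter windows. A CpG with values in all 12 animals lay in 8 of the 22 windows with CCGG and in 0 of the 14 without. The median window held 12 CpGs, against 14 over all windows. Col1a1 had no matched window, and the windows of Col4a1 and of the type VI chains are not shown. The sequences below, each 5′ to 3′ on the gene's strand, show the windows of some heart collagens and of starts described further on. Capitals mark the CpGs with a value in all 12 animals.
Col3a1 (chr1:45311288-45311587, plus strand): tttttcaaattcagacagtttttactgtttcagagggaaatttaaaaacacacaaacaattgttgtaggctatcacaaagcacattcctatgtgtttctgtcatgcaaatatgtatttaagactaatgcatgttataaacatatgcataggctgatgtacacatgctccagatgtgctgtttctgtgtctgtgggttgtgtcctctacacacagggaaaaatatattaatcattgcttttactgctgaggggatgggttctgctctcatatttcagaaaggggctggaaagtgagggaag
Col1a2 (chr6:4505368-4505667, plus strand): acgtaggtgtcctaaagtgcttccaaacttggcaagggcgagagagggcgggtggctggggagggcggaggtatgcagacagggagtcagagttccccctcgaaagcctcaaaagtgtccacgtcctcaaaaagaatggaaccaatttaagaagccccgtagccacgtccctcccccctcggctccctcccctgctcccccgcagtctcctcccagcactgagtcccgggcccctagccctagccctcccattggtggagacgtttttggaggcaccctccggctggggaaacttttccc
Col5a1 (chr2:27886175-27886474, plus strand): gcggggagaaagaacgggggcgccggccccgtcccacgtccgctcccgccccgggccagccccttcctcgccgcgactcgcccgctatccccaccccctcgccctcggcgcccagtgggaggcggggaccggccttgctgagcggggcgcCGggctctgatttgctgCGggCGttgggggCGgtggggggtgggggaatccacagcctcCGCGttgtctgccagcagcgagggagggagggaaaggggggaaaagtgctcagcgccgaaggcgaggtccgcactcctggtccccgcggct
Col4a2 (chr8:11312555-11312854, plus strand): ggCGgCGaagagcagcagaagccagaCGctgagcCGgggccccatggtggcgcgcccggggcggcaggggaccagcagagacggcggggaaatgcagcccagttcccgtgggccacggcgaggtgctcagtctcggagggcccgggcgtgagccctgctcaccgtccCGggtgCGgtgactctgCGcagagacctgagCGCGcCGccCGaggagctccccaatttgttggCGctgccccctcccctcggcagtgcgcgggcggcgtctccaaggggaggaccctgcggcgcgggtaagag
Col4a4 (chr1:82586800-82587099, minus strand): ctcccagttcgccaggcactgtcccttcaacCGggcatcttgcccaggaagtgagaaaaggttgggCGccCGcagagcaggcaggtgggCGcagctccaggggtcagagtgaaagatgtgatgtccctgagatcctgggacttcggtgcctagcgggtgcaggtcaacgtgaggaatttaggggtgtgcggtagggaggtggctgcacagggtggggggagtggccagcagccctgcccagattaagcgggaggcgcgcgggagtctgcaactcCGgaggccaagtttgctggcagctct
Col18a1, upstream start (chr10:77166481-77166780, minus strand): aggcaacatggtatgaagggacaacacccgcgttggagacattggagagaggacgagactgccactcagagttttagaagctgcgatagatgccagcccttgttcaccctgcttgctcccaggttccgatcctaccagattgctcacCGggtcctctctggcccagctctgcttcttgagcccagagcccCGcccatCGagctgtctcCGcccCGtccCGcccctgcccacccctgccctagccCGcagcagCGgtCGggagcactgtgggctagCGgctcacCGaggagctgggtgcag
Col18a1, inner start (chr10:77113656-77113955, minus strand): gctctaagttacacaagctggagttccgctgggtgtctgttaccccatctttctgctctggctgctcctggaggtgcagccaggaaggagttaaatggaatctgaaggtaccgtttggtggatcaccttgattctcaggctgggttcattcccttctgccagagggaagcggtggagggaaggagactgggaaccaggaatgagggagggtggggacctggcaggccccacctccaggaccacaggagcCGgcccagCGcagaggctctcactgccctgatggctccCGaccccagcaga

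The Col3a1 window, for the chain of type III collagen, had 0 CpGs and 0 CCGG motifs, and the deposited table held 0 rows in or near the gene (chr1:45311538-45349706). Col1a2, a chain of type I collagen, had 13 CpGs and 2 CCGG motifs in its window, and its 4 rows had values in 10 animals each. These lay 202 to 270 bp before the start, averaged 12.0 to 13.2%, and single animals ranged from 0 to 30.0%. Col11a1, a chain of type XI collagen of cartilage, had values in 11 animals at each of its 11 rows. Its 5 rows near the start averaged 2.85 to 5.72%, and its 6 rows inside the gene averaged 73.4 to 94.7%. These 3 genes did not enter the main comparisons, which used sites with values in all 12 animals. The Col5a1 window had 34 CpGs, of which 6 were measured at a mean of 2.55%, and the Col4a2 window had 33, of which 12 were measured at 5.83%.

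Sites were next averaged per gene in 2 regions. Gene ends were sites within 1 kb on either side of either end of the gene, and gene bodies were sites inside it and more than 1 kb from both ends. An end site was present in 23 genes, of which 18 had at least 3, and a body site in 36 genes, of which 35 had at least 3. The 262 end sites were mostly unmethylated, with a mean of 14.4%, a median of 1.83%, and 76.7% of the sites under 10%. The 702 body sites had a mean of 63.2% and a median of 74.8%, and 44.0% of them were over 80%. Over all autosomal protein-coding genes, 87.1% of end sites were under 10% and 37.9% of body sites over 80%. Neighbouring sites share reads and are not independent, so these shares are a description. Exons and introns are not in the gene table used, so sites are placed by distance only.

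Of the 18 collagen ends with at least 3 sites, 8 averaged under 5%. Classes here are fibrillar (Col1, Col3 and Col5), basement membrane (Col4 and Col18) and others, which include Col2, Col11, Col24 and Col27. Col5a1 makes the type V chain that starts fibril assembly and was the only gene of the fibrillar class with at least 3 end sites. It averaged 1.12% over 41 sites, with HFD animals between 0.235 and 1.28% and RD animals between 0.576 and 3.45%. Its highest animal, RD female 3, was still under 4%. Col18a1, whose protein is the source of endostatin in vessel basement membranes, averaged 1.39% over 19 sites, and the animals lay between 0.510 and 2.34%. Col15a1, which encodes a related collagen of muscle and capillary basement membranes, averaged 1.14% over 13 sites, and Col13a1, a transmembrane collagen, 1.30% over 11 sites. With Col5a1 these were the 3 lowest collagen ends.

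At the other extreme stood Col6a2, a chain of type VI collagen. Its 24 end sites all lay at the 3′ end (chr10:76596199-76596750) and averaged 91.4%, between 89.3 and 93.5% in the 12 animals. Col25a1, a transmembrane collagen known from neurons, averaged 58.2% over 3 sites before its start, and animals ranged from 48.5 to 71.3%. Col11a2, a cartilage chain, averaged 27.7% over 8 sites. Col1a1, the main chain of type I collagen, had only 2 end sites, at chr11:94936339 and chr11:94936391. They averaged 48.8%, and the animals ranged widely, from 11.8% in RD female 4 to 70.9% in HFD male 2. Col6a1, another type VI chain, had 1 end site at a mean of 35.9%, with animals from 11.1 to 58.3%. The other ends with 1 or 2 sites were Col9a1, a cartilage chain, at 83.9%, Col6a5 at 48.9% and Col14a1, which binds to collagen fibrils, at 2.94%. By class, the 5 basement membrane ends averaged 6.29% ± 2.46 (SD over 12 animals), the 12 other ends 18.4% ± 1.14 and all 9325 gene ends 11.9%. The 5 basement membrane ends are not separate measurements. Col4a3 and Col4a4 have the same 23 sites and Col4a1 and Col4a2 share 24, so these sites count 2 times.

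**Figure D1:**
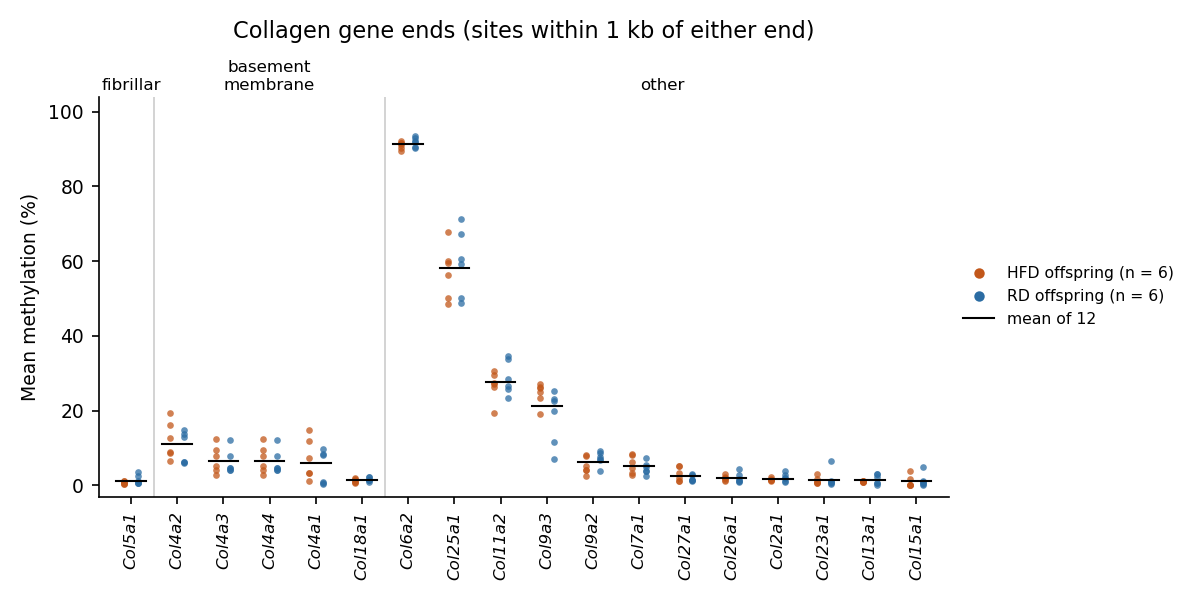
Mean methylation (percent, vertical axis) of the gene ends of the 18 collagen genes with at least 3 end sites, 1 point per animal, orange for HFD and blue for RD offspring, with a line at the mean of the 12 animals. Col4a3 and Col4a4 share the same 23 sites, Col6a2 stands at 91.4% through its 3′ end, and Col4a1 and Col4a2 spread from animal to animal within both diets.

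The type IV collagen genes lie in head-to-head pairs that share a promoter region, so that 1 set of sites serves 2 genes. Col4a1 and Col4a2, the chains of the most widespread basement membrane network, shared 24 end sites between chr8:11312369 and chr8:11312785. These sites fell into 3 blocks of 8. The outer blocks averaged 1.58% and 1.94%. The middle block, 299 to 369 bp inside the annotated start of Col4a1 and upstream of the Col4a2 start, differed strongly from animal to animal. Among HFD animals it stood at 8.24, 1.04 and 42.5% in females 2, 3 and 4 and at 5.57, 19.0 and 32.2% in males 2, 3 and 4. Among RD animals it stood at 20.2, 25.0, 0.595 and 0% in females 1 to 4 and at 0.63 and 13.2% in males 1 and 2. Thus 3 of 6 HFD and 3 of 6 RD animals were above 10%, and the diets overlapped. Within an animal the neighbouring sites of the block often had the same value, though HFD female 4 ran from 21.4 to 50.0%. Reads that span several sites could give equal values, which was not tested. The block may thus be close to 1 measurement per animal of unknown depth. The first part of the Col4a2 window printed above holds the end of this block.

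**Figure D2:**
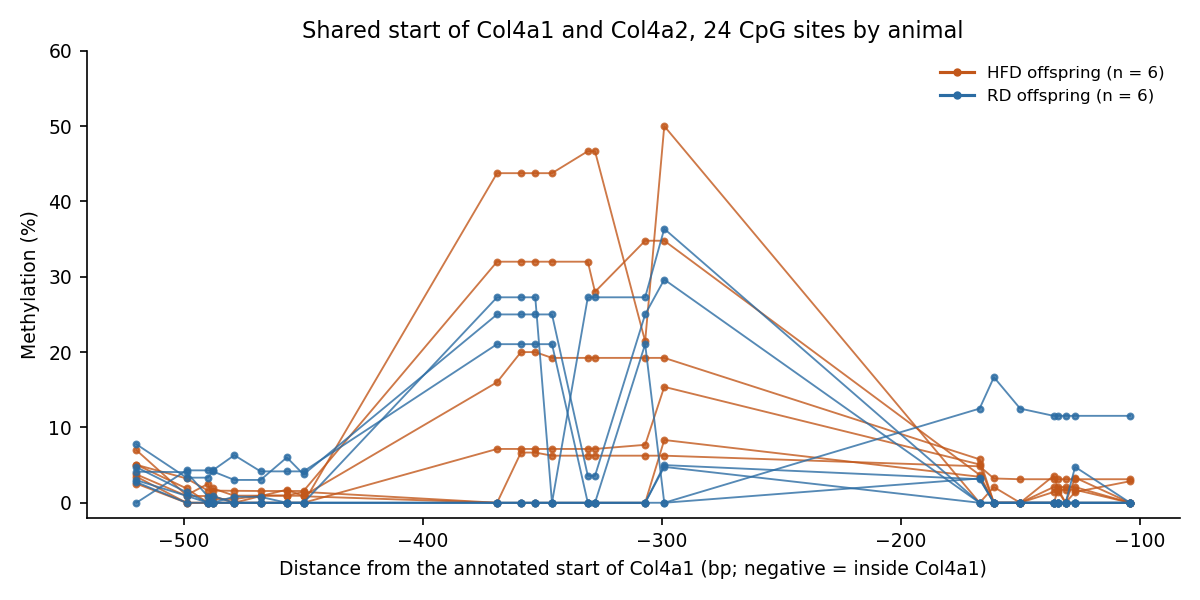
Methylation (percent) at the 24 sites shared by the starts of Col4a1 and Col4a2 against the distance from the annotated Col4a1 start (bp, negative inside Col4a1), 1 line per animal, orange for HFD and blue for RD offspring. The outer blocks stay low, except for RD male 2 in the block nearest the Col4a1 start, and the middle block ranges from 0 to 42.5% as a mean per animal.

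Because of this block the Col4a1 end, at a mean of 5.85%, had one of the 3 largest spreads between animals of the same diet among the collagen ends tested (SD 4.95 percentage points), larger than at 79.9% of the 2875 gene ends tested. Col4a3 and Col4a4, chains of the network known from kidney filters and the inner ear, shared 23 end sites between chr1:82586587 and chr1:82587302 at a mean of 6.60%. There too 1 stretch of 8 sites, chr1:82587232-82587302, was uneven, from 0% in HFD male 4 to 22.8% in RD male 2. The 10 sites in the middle of the pair, which include the 5 measured CpGs of the Col4a4 window, averaged 2.83%, and the lower 5 averaged 10.1%.

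Inside the genes, the fibrillar class (types I, III and V) was more methylated on average than the basement membrane class (types IV and XVIII). The mean over the 4 fibrillar genes with a body (54 sites) was 73.7% ± 1.51 (SD over 12 animals), and over the 4 basement membrane genes (96 sites) 54.1% ± 1.41. The other 27 collagens (550 sites) averaged 66.4% ± 0.383 and all 7834 gene bodies 57.2%. The gap between the first 2 classes was 19.6 percentage points ± 2.49 and lay between 16.6 and 25.0 in the 12 animals, above 0 in 12 of 12. It compares 4 genes with 4, and genes are not replicates, so no test was made. The 2 classes also overlapped gene by gene.

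Among fibrillar genes, Col5a2 was the highest at 90.8% over 5 sites, with animals from 85.1 to 94.9%. Col5a1 followed at 79.4% over 27 sites and Col5a3 at 70.7% over 7 sites. Col1a1, over 15 sites (chr11:94941245-94950300), stood at 53.9%, with animals from 47.9 to 58.3%, which placed it below 2 of the basement membrane genes. Those were Col18a1 at 60.3% over 42 sites and Col4a4 at 58.3% over only 3 sites. Col4a2 stood at 49.5% over 29 sites and Col4a1 at 48.2% over 22.

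The type VI chains ranged widely. Col6a2 stood at 91.9%, Col6a3 at 86.9% and Col6a1 at 85.7%, each within 7 percentage points from the lowest to the highest animal. Their relatives Col6a4, Col6a6 and Col6a5 were lower, at 81.5, 65.8 and 58.3%. Col10a1, the collagen of growth plate cartilage, was at 89.3% and with Col6a2 and Col5a2 made up the 3 highest bodies. The whole of Col10a1 lies inside another gene, Nt5dc1, in the gene table, so its sites belong to both. The 3 lowest were Col12a1, which decorates collagen fibrils in tendon and other dense tissue, at 5.00%, Col9a2, a cartilage chain, at 25.9%, and Col26a1 at 40.7%. The most variable bodies between animals of 1 diet were Col22a1 (SD 7.86 percentage points, 3 sites), found at muscle-tendon junctions, Col15a1 (SD 4.97, 4 sites) and Col6a5 (SD 4.72, 8 sites). The median SD over collagen bodies was 1.75 and over all bodies tested 2.27.

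**Figure D3:**
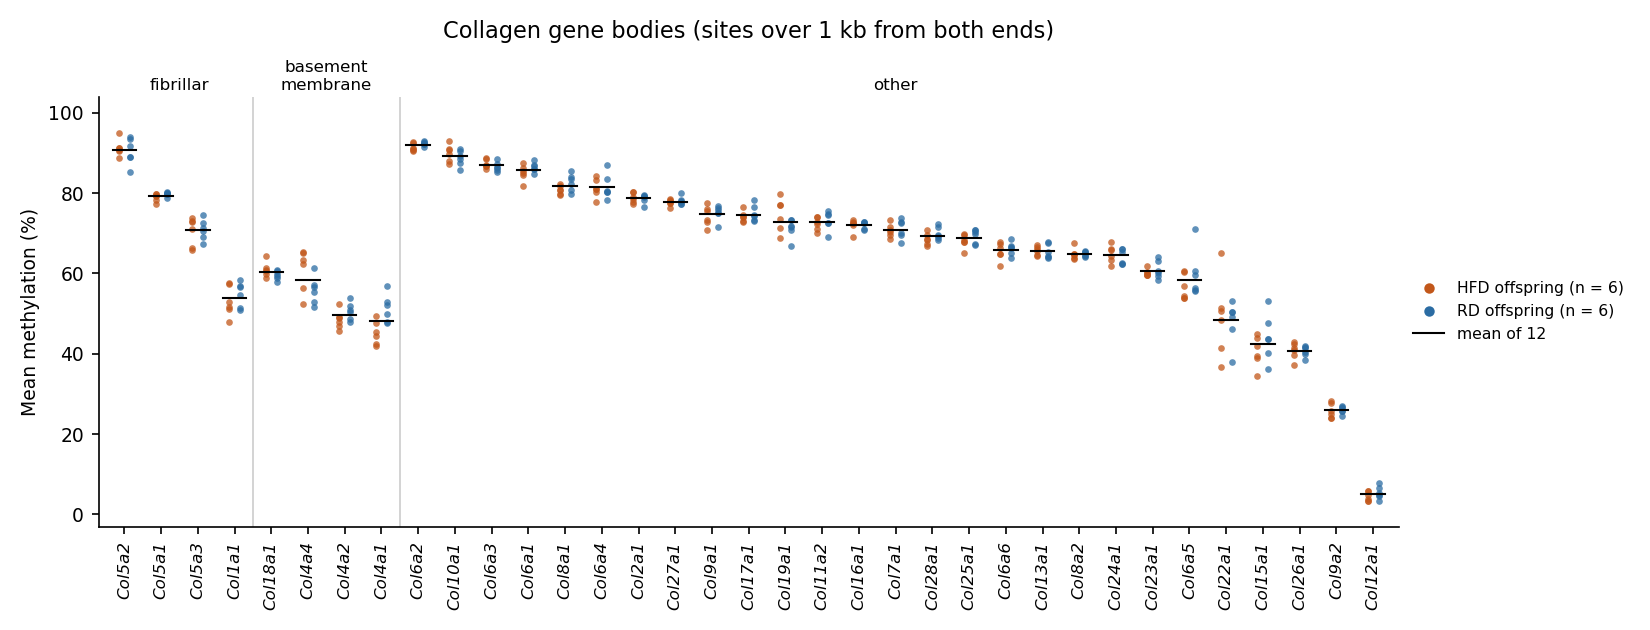
Mean methylation (percent, vertical axis) of the bodies of the 35 collagen genes with at least 3 body sites, 1 point per animal, orange for HFD and blue for RD offspring, with a line at the mean of the 12 animals. Genes run from high to low within the fibrillar, basement membrane and other classes, from 91.9% at Col6a2 to 5.00% at Col12a1, and HFD and RD points overlap in every gene.

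The low level of Col12a1 came from 38 of its 41 body sites, which lay 1891 to 2622 bp inside its upper end and so just outside the limit of 1 kb. The 2 stretches of 500 bp (tiles) that hold them averaged 1.91% and 1.64%. Other stretches inside collagens were unmethylated as well. Of the 125 collagen tiles with at least 3 sites, 27 were under 10%, 47 between 10 and 80% and 51 over 80%. Of those under 10%, 9 lay more than 1 kb from both ends, in Col12a1 and Col26a1 (2 each), Col4a2, Col8a2, Col13a1, Col23a1 and Col27a1. The Col4a2 tile, chr8:11348618-11348689, lay 35.8 kb inside the gene and averaged 5.85% ± 4.97 in HFD and 10.4% ± 6.48 in RD animals (SD, n = 6 each here and below). Some unmethylated sites belong to a neighbour as much as to the collagen. At the 3′ end of Col23a1, 17 sites averaged 0.447%, next to Phykpl, whose near end lies 729 bp further on in the gene table.

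Col18a1 has alternative promoters, and the pair of windows printed above differed in every animal. At the upstream start, 11 of the 16 CpGs were measured and averaged 1.63%, between 0.280 and 3.53%. At the inner start, which lies 52.8 kb further into the gene and whose use is best known from liver, 3 of the 6 CpGs were measured and averaged 40.1%, between 26.3 and 65%. The animals of both diets overlapped at the inner start, at 42.5% ± 5.89 in HFD and 37.8% ± 14.1 in RD offspring. The highest RD animal stood at 65%, and the medians were 41.8% in HFD and 32.9% in RD offspring. The pair of windows was singled out after its values had been seen.

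The comparison the study was designed for is that between maternal diets. Each feature was tested with limma on log2((rate + 0.05)/(1 − rate + 0.05)), with diet and sex as terms and p-values adjusted (Benjamini-Hochberg) over all features of that kind with a mean of 5 to 95%. Among collagens, 0 of 35 gene bodies passed an adjusted p of 0.05, against 0.16% of the 6863 bodies tested, and 0 of 10 gene ends, against 0.104% of 2875. The other 8 collagen ends with 3 or more sites had means under 5% and were not tested. At an unadjusted p under 0.05, limma gave 1 of the 35 bodies, with 8.57% among all bodies, and 0 of the 10 ends, with 7.44% among all ends. HFD was lower in 24 of the 35 bodies, where 57.0% of all bodies were lower, and in 4 of the 10 ends, where 49.1% were. The 10 ends include Col4a3 and Col4a4, which are the same 23 sites, and Col4a1 and Col4a2, which share 24 sites. The HFD and RD animals overlapped in all of these bodies and ends, and 0.714% of all bodies and 0.487% of all ends did not overlap. The class means overlapped too. Fibrillar bodies were at 73.4% ± 2.08 in HFD and 73.9% ± 0.729 in RD offspring, basement membrane bodies at 53.9% ± 1.35 and 54.3% ± 1.57, and the other bodies at 66.1% ± 0.229 and 66.6% ± 0.390.

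**Figure D4:**
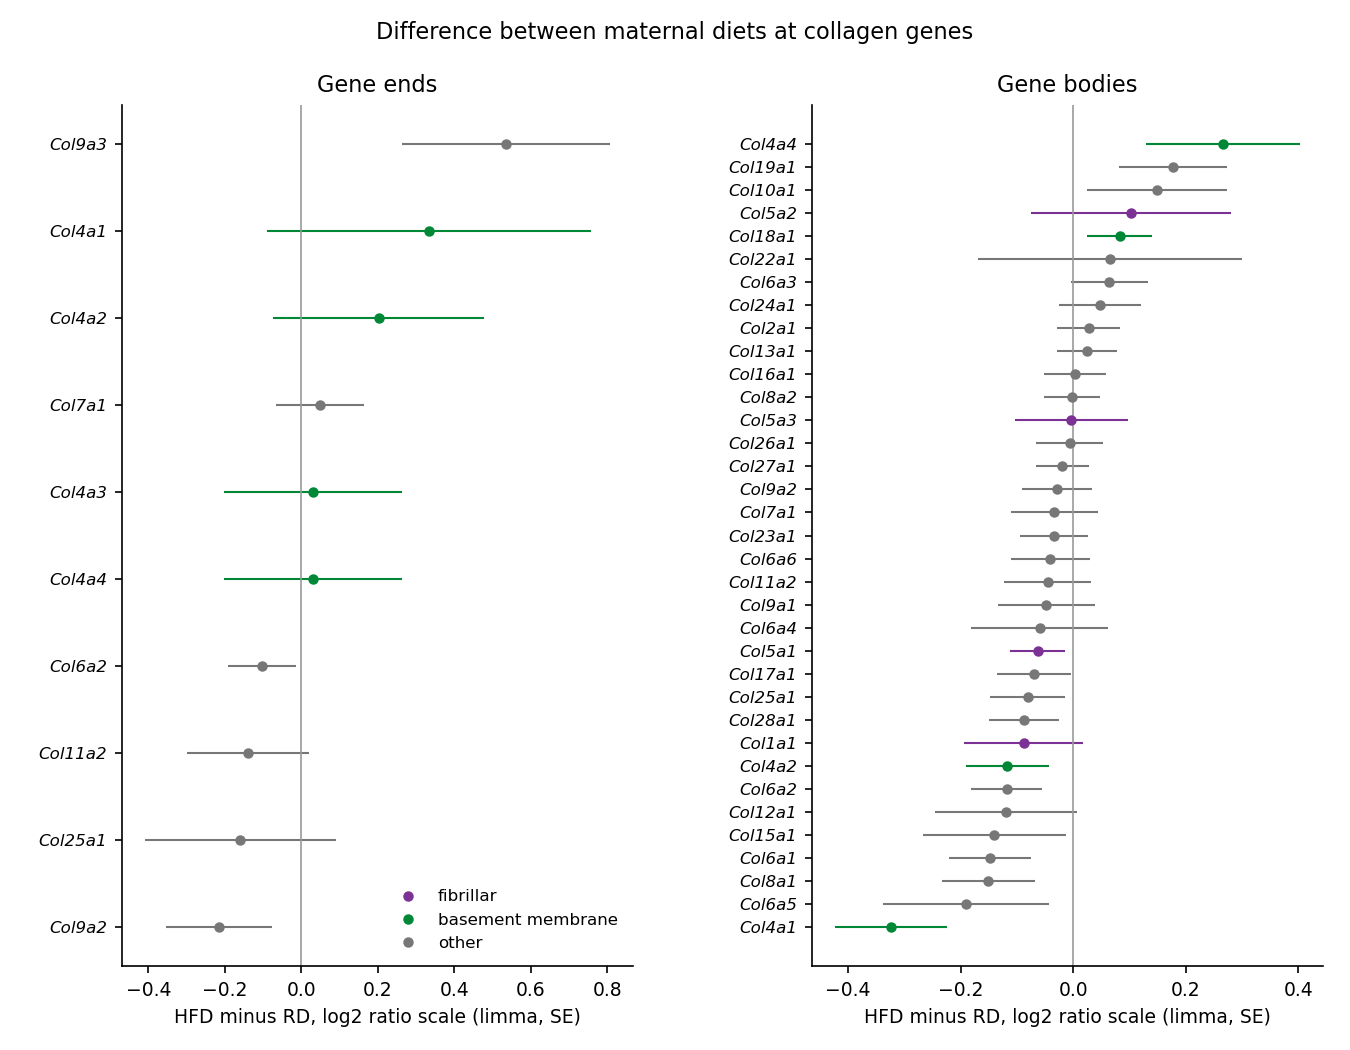
Diet coefficient (HFD minus RD, limma, log2 ratio scale, point with standard error) of the 10 collagen ends and 35 collagen bodies tested, coloured by class. The Col4a1 body has the most negative coefficient, at -0.32, and 0 features passed the adjusted threshold.

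The smallest p among all collagen features of gene size was at the Col4a1 body (22 sites, chr8:11226422-11309107). HFD females 2, 3 and 4 stood at 44.5, 45.3 and 42.4% and HFD males 2, 3 and 4 at 47.6, 49.5 and 41.9%. RD females 1 to 4 stood at 56.8, 49.8, 48.0 and 52.2% and RD males 1 and 2 at 47.8 and 52.9%. The HFD mean was 45.2% ± 2.94 and the RD mean 51.2% ± 3.44, a difference of -6.04 percentage points. The limma coefficient was -0.32 (SE 0.10), which did not pass the adjustment (adjusted p = 0.448). Only HFD male 3 lay above any RD animal, and RD male 1 and RD female 3 lay below it. HFD was lower at 20 of the 22 sites, and 3 sites had an unadjusted p under 0.05, beside 52.2% lower and 6.53% with such a p among all sites. The gene was picked by its p and neighbouring sites share reads, so this count restates the gene mean. Its partner Col4a2 differed by -2.11 points (adjusted p = 0.726, limma), with 48.5% ± 2.29 in HFD and 50.6% ± 2.19 in RD offspring.

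**Figure D5:**
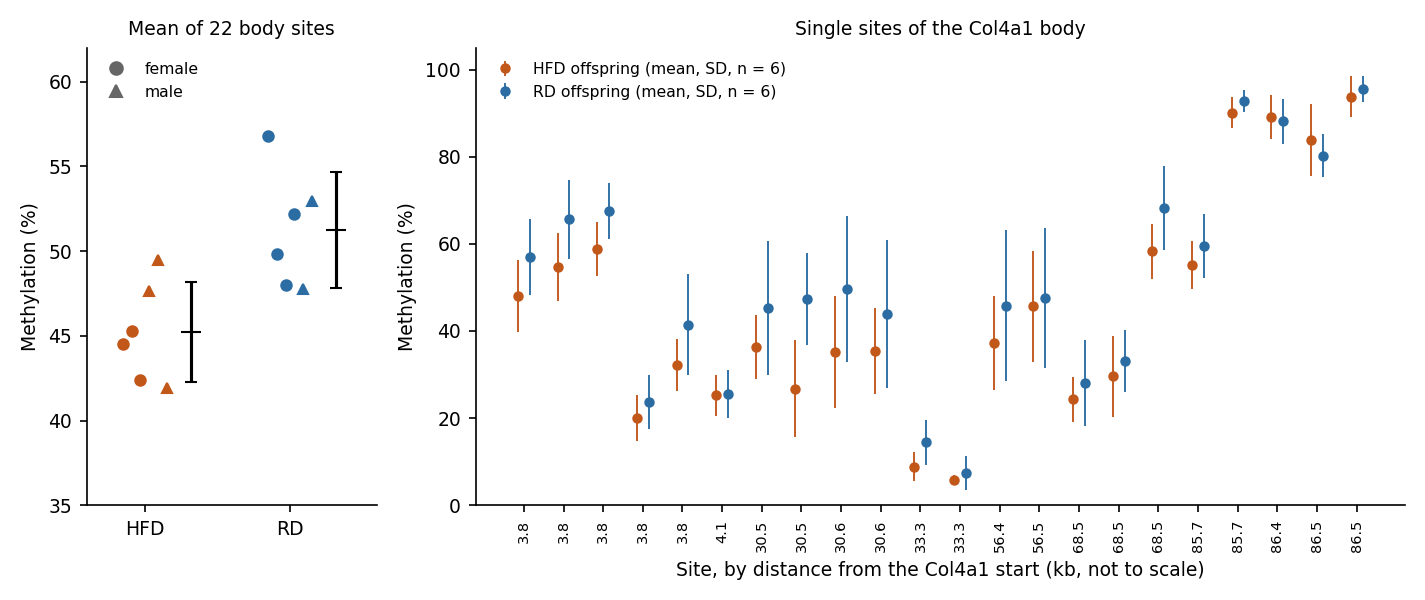
Methylation (percent) of the Col4a1 body. Left, mean of 22 sites per animal (circles female, triangles male) with group mean and SD on an axis that starts at 35%; right, mean and SD of each site by diet, ordered by distance from the Col4a1 start. HFD is lower at 20 of 22 sites, and the animals of the 2 diets overlap between 47.8 and 49.5%.

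Marker genes of the cell types of the ventricle were averaged in the same way, without a test. Of 10 endothelial genes listed, 8 had a measured body, and 6 of those were lower in HFD, while Flt1 (59.4 and 59.2%) and Emcn (89.8 and 88.6%) were higher. The mean of the 8 bodies was between 50.8 and 52.5% in HFD and between 53.9 and 56.9% in RD animals, without overlap. How often other gene sets lack overlap is not known, and 0.714% of all single bodies tested did not overlap. The gap was largest at Kdr (50.3 and 59.9%), Egfl7 (16.7 and 24.4%) and Pecam1 (43.5 and 49.8%). It was smaller at Erg (73.2 and 76.8%), Esam (6.53 and 8.20%) and Cdh5 (72.0 and 73.0%). At the ends of the endothelial list (4 of 10 measured, 3 lower) the means were 14% ± 2.29 in HFD and 19.7% ± 2.87 in RD offspring. They overlapped, from 10.3 to 16.7% and from 15.1 to 23.0%. Of all bodies tested 57.0%, and of all ends tested 49.1%, were lower in HFD. The lists below follow in the same order, HFD before RD. Fibroblast bodies (4 of 10 measured, 3 lower) were at 32.4% ± 1.31 and 34.2% ± 1.27, and cardiomyocyte bodies (3 of 12, all lower) at 72.7% ± 1.94 and 74.4% ± 1.61. Ends of the fibroblast list (3 of 10 measured, 1 lower) were at 12.7% ± 1.61 and 12.3% ± 1.38, and those of the cardiomyocyte list (4 of 12, 2 lower) at 45.5% ± 2.57 and 46.4% ± 2.65. Smooth muscle and pericyte bodies (6 of 8, 4 lower) were at 70.6% ± 2.02 and 71.5% ± 0.661, leukocyte bodies (3 of 9, all lower) at 82.3% ± 2.17 and 83.3% ± 3.22, and no leukocyte end was measured. Smooth muscle and pericyte ends (3 of 8, 1 lower) were at 6.76% ± 1.31 and 6.71% ± 2.09. Genes of tissues that should be absent (2 of 6) had bodies at 3.57% ± 2.29 and 4.45% ± 2.54 and ends at 45.1% ± 2.12 and 44.5% ± 0.836. These were Gfap and Neurod1, whose ends were unlike, at means of 86.8 and 2.79% over all animals. The part of cell mixture in the Col4a1 values was not tested. Libraries of HFD offspring also carry the numbers 2 to 8 and those of RD offspring 9 to 14 in the labels, so library order and diet cannot be told apart.

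Among the remaining bodies, Col4a4 differed by 5.03 percentage points (60.8% ± 5.23 in HFD, 55.8% ± 3.44 in RD, 3 sites, limma adjusted p = 0.650) and Col19a1, a collagen of muscle and nerve basement membrane zones, by 3.39 (74.6% ± 4.11 and 71.2% ± 2.40, limma adjusted p = 0.677). The type VI chains Col6a1, Col6a2 and Col6a3 had SDs under 2 points in both diets, and differences under 2 points. Col6a1 was at 85.1% ± 1.96 in HFD and 86.4% ± 1.22 in RD offspring, and Col6a2 at 91.4% ± 0.895 and 92.3% ± 0.587. Col6a3 differed by 0.753 points, and Col18a1 by 1.42. With an animal left out, Col6a1 ran from -1.84 to -0.668, Col6a3 from 0.491 to 1.15 and Col18a1 from 0.778 to 1.83. The more variable Col6a5 was at 56.7% ± 3.14 and 59.9% ± 5.90, a difference of -3.21 points, which ran from -4.07 to -0.961 with an animal left out, the latter without RD male 2. The fibrillar genes differed little, Col1a1 by -1.64, Col5a1 by -0.815, Col5a2 by 0.818 and Col5a3 by -0.458, beside SDs within a diet of 3.42, 0.808, 2.76 and 3.05 points. With an animal left out, the Col1a1 difference ran from -2.53 to -0.605 and that of Col5a1 from -1.0 to -0.456.

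Of the ends tested, Col9a3, a chain of cartilage type IX collagen, differed most, by 6.24 percentage points (24.5% ± 2.96 in HFD, 18.2% ± 7.26 in RD, 5 sites, limma adjusted p = 0.700). The RD value rested on 2 low animals, female 2 at 11.7% and male 1 at 6.96%, while the other 4 were higher, up to 25.1%. With an animal left out the difference ran from 3.98 to 7.62, the lowest without RD male 1. Col9a2 was at 5.27% ± 2.28 and 7.14% ± 1.90, the 3′ end of Col6a2 at 91.0% ± 1.01 and 91.9% ± 1.29, and Col11a2 at 26.7% ± 3.98 and 28.7% ± 4.59. With an animal left out, the Col11a2 difference of -2.04 points ran from -3.11 to -0.557, and the Col6a2 difference of -0.893 from -1.20 to -0.560. The shared Col4a1 and Col4a2 start gave 6.98% ± 5.33 and 4.71% ± 4.55 for Col4a1 (limma adjusted p = 0.913). That difference of 2.28 points lay between 0.736 and 3.43 with an animal left out. Col4a2, which has 2 further sites at its 3′ end, was at 12.0% ± 4.90 and 9.98% ± 4.28, and its difference of 2.06 ran from 0.614 to 3.15 with an animal left out. The Col4a3 and Col4a4 start differed by 0.762 points. Among ends too low to test, Col5a1 was at 0.703% ± 0.395 and 1.54% ± 1.17, and Col18a1 at 1.19% ± 0.582 and 1.59% ± 0.524. The Col5a1 difference of -0.838 ran from -1.03 to -0.456 with an animal left out.

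At finer scale, 0 of 658 collagen sites were called by limma, against 0.0102% of 157524 sites, and 0 of 100 collagen tiles, against 0.0294% of 23776. An unadjusted p under 0.05 was reached by 40 sites (6.08%, against 6.53% of all sites) and 4 tiles (4%, against 7.81%). HFD was lower at 377 of the collagen sites, where 52.2% of all sites were lower, and in 62 of the tiles, where 53.0% were. The site with the smallest p, chr1:24372777, lay inside Col19a1. Its HFD animals had 54.5, 61.8 and 69.2% as lowest, median and highest value, and its RD animals 31.0, 37.6 and 58.8%. The limma coefficient was 1.19 (SE 0.29, adjusted p = 0.432), and RD female 2, at 58.8%, was the only RD animal within the HFD range. Next came chr8:11282357 inside Col4a1, 30.5 kb from its start, at 26.8% ± 11.1 in HFD and 47.4% ± 10.5 in RD offspring (limma adjusted p = 0.605). Sites in Col17a1 (chr19:47653515, 8.12% ± 1.68 and 3.15% ± 2.81), Col6a5 (chr9:105928547, 65.3% ± 5.63 and 75.5% ± 5.40) and Col13a1 (chr10:61857843, 66.3% ± 8.40 and 51.4% ± 10.9) completed the first 5.

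The tile with the smallest p lay inside Col23a1, a transmembrane collagen (chr11:51528153-51528167, 3 sites). HFD animals had 72.3, 75.6 and 82.1% as lowest, median and highest value and RD animals 80.9, 84.3 and 85.8%, and the limma coefficient was -0.54 (SE 0.14, adjusted p = 0.326). In Col13a1, chr10:61857792-61857844 was at 60.6% ± 8.78 in HFD and 48.1% ± 6.91 in RD offspring (limma adjusted p = 0.429), and it includes the Col13a1 site above. In Col8a1, a short-chain collagen of vessel walls, chr16:57627015-57627173 was at 81.0% ± 0.955 and 84.8% ± 3.02 (limma adjusted p = 0.578).

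Sex was the second labelled factor. By limma 0 of 10 collagen ends (0.0696% of all ends) and 0 of 35 bodies (0.0146% of all bodies) were called, and an unadjusted p under 0.05 was reached by 2 ends (7.03% of all ends) and 3 bodies (5.3% of all bodies). Col7a1, which makes the anchoring fibrils of skin, had 7 sites at its start at 3.79% ± 1.04 in the 7 females and 7.0% ± 1.44 in the 5 males. The limma coefficient of females against males was -0.49 (SE 0.12, adjusted p = 0.292). Females ranged from 2.56 to 5.54% and males from 4.96 to 8.43%, so RD female 3 and RD male 1 were the overlapping animals. The Col9a2 start went the other way, at 7.39% ± 1.19 in females and 4.54% ± 2.37 in males (limma adjusted p = 0.598). The bodies with the smallest p were Col19a1, at 71.0% ± 2.41 in females and 75.6% ± 3.55 in males (limma adjusted p = 0.869), and Col6a1, at 85.1% ± 1.68 and 86.7% ± 1.39 (limma adjusted p = 0.912).

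Diet within females, diet within males and their difference also gave 0 collagen calls by limma in ends and bodies, with 0, 0 and 0% of all ends and 0.0291, 0.0291 and 0% of all bodies. Unadjusted p-values under 0.05 numbered 0, 0 and 1 in collagen ends (5.88, 7.3 and 5.5% of all ends) and 1, 3 and 2 in collagen bodies (5.76, 6.72 and 4.68% of all bodies). The smallest p of a diet-by-sex difference was at the Col6a5 body (limma adjusted p = 0.908). HFD females were at 59.2% ± 2.17, HFD males at 54.1% ± 0.291, RD females at 57.1% ± 2.39, and the 2 RD males at 59.6 and 71.1%. Next were the Col17a1 body, a collagen of epithelial anchoring complexes (limma adjusted p = 0.992), and among ends Col25a1 (limma adjusted p = 0.891) and the Col4a3 start (limma adjusted p = 0.940). Only 2 RD males support these contrasts.

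Collagen chains are made, crosslinked, bound and broken down by a further set of proteins, of which 58 genes were listed, from the hydroxylases and lysyl oxidases to matrix metalloproteinases, collagen receptors and the transforming growth factor beta ligands. Of these, 34 had a measured end and 32 a measured body. In the limma fits 0 of 10 ends and 0 of 30 bodies were called for diet, against 0.104% of all ends and 0.16% of all bodies. An unadjusted p under 0.05 was reached by 0 ends and 2 bodies, against 7.44% of all ends and 8.57% of all bodies. HFD was lower in 4 of the 10 ends and in 13 of the 30 bodies, where 49.1% of all ends and 57.0% of all bodies were lower. The median diet coefficient was 0.04 over the ends and 0.02 over the bodies, beside 0.03 and -0.03 over the collagens and 0.00 and -0.02 over all genes. The matrix genes with the smallest p were the bodies of Ddr2, a receptor for fibrillar collagen that also stands in the fibroblast list, at 69.0% ± 3.15 in HFD and 74.2% ± 1.48 in RD offspring (4 sites, limma adjusted p = 0.415), and of Bmp1, the proteinase that trims procollagen, at 85.0% ± 2.33 and 82.2% ± 1.64 (6 sites, limma adjusted p = 0.577).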

How the data were processed

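RRBS was run on left ventricle DNA of 12 offspring. The deposited table gives percent methylation per CpG and animal, made by the authors, with 421177 rows and no read counts, so depth is unknown, no interval can be given, and a coverage minimum could not be applied. The submitters' processing notes name FastQC, Trim Galore, Bismark 0.19, limma and the build mm10. Positions were checked against RefSeq promoter sequences of GRCm38.p6, where 37887 lay on a CpG and 5 did not. Values were present at 385299 to 417081 sites per animal, and Pearson's r between animals was 0.973 to 0.986 across sites, which are not independent. All columns matched a sample (0 unmatched).

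Rates were averaged over at least 3 sites per gene end (1 kb), gene body or 500 bp tile, using autosomal sites with values in all 12 animals, and tested with limma 3.58.1 (R 4.3.3), two-sided, on the log2 ratio stated with the results, which uses an offset of 0.05 and rates as fractions. Features had a mean of 5 to 95%. The fit was checked on simulated rates. Class means have no test. The members, the gene lists and the tests were chosen with earlier results of these data known. Named were the heart matrix collagens, and per region the 5 smallest p-values for diet, the 3 highest, 3 lowest and 3 most variable, then 5 sites, 3 tiles, 2 per sex and interaction test and 2 matrix genes by smallest p. Alternatives covered the offset, transformation, rate limits, variances, missing values, sex term, replicate block, site minimum, window, class borders and leaving out each animal. Figures were drawn with matplotlib 3.10.9.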

Additional observations from a re-analysis of the deposited data

Results flagged for a closer look

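In 88 groups of 4 to 10 animals, 4 held an animal whose gap to its nearest neighbour took up most of the group's range (Dixon's 95% limit), where chance flags about 1 in 20 groups, or 4.4 of the 88. At the Col15a1 start, RD female 3 had 4.81%, and the other RD animals 0 to 1.18%. At the 2 end sites of Col1a1, HFD male 2 had 70.9%, and the other HFD animals 34.3 to 46.4%. At the same Col1a1 sites RD female 4 had 11.8%, and the other RD animals 51.8 to 68.2%. In the Col6a5 body, RD male 2 had 71.1%, and the other RD animals 55.6 to 60.7%.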

How the results depend on the processing

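No collagen site, tile, end or body was called for diet under any alternative run, and the lowest adjusted p (limma) any of them reached was 0.185 for sites, 0.245 for tiles, 0.504 for ends and 0.293 for bodies. Collagen calls for sex, within sexes and for the interaction, and calls of matrix genes, were also 0 throughout, leave-one-out fits included (0 to 0). Over all genes the counts moved. Bodies called for diet were 11 in the main test, 1 to 14 under the alternatives and 3 to 11 with an animal left out, ends 3, 0 to 5 and 1 to 5, tiles 7, 3 to 19 and 3 to 11, and sites 16, 0 to 78 and 0 to 22. Between the deviations of animals with the same number in the labels, r was -0.061 to 0.029 in 13 pairs, and -0.093 to 0.158 in 40 other pairs. The pairs are not independent, since each animal of another group had opposite r with RD male 1 and RD male 2. These values therefore cannot show whether equal numbers mark a shared litter or batch. With a replicate block, collagen calls were 0, and calls over all features 0 sites, 3 tiles, 1 end and 1 body. The Col4a1 body difference kept its sign, at -6.90 to -4.94 points with an animal left out and with adjusted p-values of 0.293 to 0.715 over the 24 alternatives.

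Class levels depended on which genes and sites were taken. The fibrillar end level, 1.12% from Col5a1 alone, was 8.25% with Col2, Col11, Col24 and Col27 as fibrillar and 31.0% with ends of 2 kb. The level of the other ends, 18.4%, was 20.04% as a mean over sites, 3.82% as a median over genes, 20.9% with those types as fibrillar, 21.4% with Col15 and Col7 as basement membrane, 6.53% with ends of 500 bp, 23.2% with 2 kb, 14.3% with missing values allowed and 13% at 5′ ends alone. Its HFD minus RD value, -0.069, was 1.54 with ends of 500 bp. Basement membrane bodies, at 54.1%, were at 51.9% with ends of 500 bp and 59.4% with missing values allowed, and fibrillar bodies, at 73.7%, at 70.1% with ends of 500 bp. The gap between these classes stayed above 0 in 12 of 12 animals under each of the 7 alternatives, with means of 15.1 to 21.0 points. The level of the other bodies, 66.4%, was 64.0% over sites, 70.4% as a median, 65.1% and 67.1% with the class borders moved, 63.2% with 500 bp and 67.9% with 2 kb, and its HFD minus RD value, -0.442, was -1.09 as a median and -1.22 with missing values allowed.

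Differences near 0 changed sign. With missing values allowed, the bodies of Col22a1 (-1.49), Col26a1 (-1.66), Col5a1 (0.124) and Col5a2 (-0.803) turned. With an animal left out, sign changes occurred within ranges of -2.11 to 3.56 (Col22a1), -0.328 to 0.821 (Col26a1), -0.230 to 1.53 (Col5a2), -1.15 to 0.470 (Col5a3) and -0.797 to 0.0632 (Col9a2) in bodies and -0.309 to 1.93 at the Col4a3 and Col4a4 start. HFD minus RD class means also crossed 0, within -0.766 to 0.129 (basement membrane bodies), -1.14 to 0.0324 (fibrillar bodies) and -0.374 to 0.366 (other ends). The cause was not tested. The planned coverage minimum was not run, since coverage is not given beside the rates.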
